A study of Mus musculus with 4 samples.

Results

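The cells described here are cushion-forming cells of the atrioventricular canal at embryonic day 9.5, when the first endocardial cells leave the inner lining of the canal to fill the cushions that later become valve leaflets. They were chosen from the E9.5 library by their own UMIs (unique molecular identifiers, one per captured RNA molecule). Cells had to pass 4 filters: at least 500 genes, at most 10% mitochondrial UMIs, a sum of Myl7, Myl4, Tnnt2 and Actc1 under 100 UMIs per 10000, and a sum of Hba and Hbb globin genes under 1000 UMIs per 10000. Members then carried at least 2 Msx1 UMIs, at least 5 Hapln1 UMIs and no Prrx1 UMI. Of 1206 E9.5 cells, 406 passed the filters, and 115 of these (28.3%) were members. The whole series holds 2160 cells.

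The study sorted red fluorescent cells from embryos of Tie2-Cre by Rosa26 tdTomato matings on a C57BL/6 background, in which the Tie2 promoter drives Cre in endothelial cells and switches the reporter on in them and their descendants. At least 60 embryos were pooled for each stage. There was 1 library of the atrioventricular canal (AVC) at E9.5, 1 library of E16.5 mitral valve and 2 libraries of newborn (P0) mitral valve, all with the same alleles and all digested for 5 or 10 min with a dissociation enzyme that the labels spell TRIPLE before the sort. For E16.5 the stage comes from the title, because the entry for age is misspelled. The labels do not say whether the P0 libraries came from separate litters, and the reporter is not among the genes counted.

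Endocardial cells of the canal overlie a layer of cardiac jelly rich in hyaluronan and versican. Under BMP and TGF-beta signals from the neighbouring myocardium and Notch signals among themselves, some lose their junctions and invade this jelly, a process called endothelial-to-mesenchymal transition, and factors of the Snail, Twist, Msx, Sox and Tbx families are known for their part in it. In GRCm38 (mm10) Msx1 lies at chr5:37820485-37824583 and Hapln1 at chr13:89539796-89611652. Msx1 encodes a homeobox factor of the cushion, Hapln1 a link protein that ties versican to hyaluronan, and Prrx1 a homeobox factor of embryonic mesenchyme. Prrx1 was also present in later valve cells, at 0.582 UMIs per 10000 in E16.5 and 1.46 and 1.15 in P0 cells with matrix genes.

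The E9.5 library held 30819374 UMIs, with a median of 24564.5 per cell, and the later libraries held 1021188 (E16.5), 1836768 and 1086623 UMIs (P0). Of the E9.5 cells, 552 passed the limit for the cardiomyocyte genes and 249 the limit for globin genes. Whether these cells carried the reporter cannot be told from the counts. The 249 globin cells and 544 of the cardiomyocyte cells, those with at most 10% mitochondrial UMIs and few globin UMIs, are used below for comparison. They give the level each gene has in cells that the filters left out. They are not a clean background for every gene, since Pecam1 was detected in 28.1% of the globin cells. With 1 library at E9.5 there is no replicate: no test was made between groups of cells there, and the 95% intervals given cover counting error alone. In pooled sums, fewer cells with a gene and less RNA per cell cannot be told apart unless shares of cells are given.

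Members had a median of 23069 UMIs (6470 to 50079) and 4823 genes per cell, and scrublet marked none of them as a doublet. Msx1 counts in members were 2 at the lowest, 6 at the median and 32 at the highest, and Hapln1 counts were 5, 25 and 61. The thresholds cut through a continuum. The 15 members with exactly 2 Msx1 UMIs had 9.52 Hapln1, 4.35 Pdlim3 and 1.21 Twist1 UMIs per 10000, and the 27 cells just outside with 1 Msx1 UMI had 6.98, 1.69 and 0.589. The 4 members with 5 or 6 Hapln1 UMIs had 1.02 Pdlim3 and 0.170 Twist1 UMIs per 10000, against 0.653 and 0.408 in the 5 cells with 3 or 4. Of those 4 members, 2 are the keratin-rich cells described below. A Prrx1 UMI removed 7 cells, none with more than 3 such UMIs, and these had 0.256 Sox9 and 1.03 Pdlim3 UMIs per 10000.

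Members carried both kinds of gene that the label names. Of the 4 cushion markers, Msx1 (3.76 UMIs per 10000) and Hapln1 (11) were set by the rule. Tagln2, an actin-binding protein of the transgelin family, stood at 14.3 UMIs per 10000 in members and Pdlim3, an actin-associated PDZ and LIM domain protein, at 5.32. Tagln2 and Pdlim3, which the rule did not use, stood at 0.718 and 0.0910 in globin cells and at 0.401 and 0.497 in cardiomyocyte cells. All 10 endothelial markers listed for the check were detected in members, at 12.5 UMIs per 10000 in sum. Macrophage and blood markers came to 0.0373 UMIs per 10000, with Ptprc and C1qa at 0. The cardiomyocyte list came to 19.0 UMIs per 10000 in members, close to the 22.2 of globin cells. It came to 657 in cardiomyocyte cells, a difference that the filter on 4 of its 13 genes fixed.

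**Figure D1:**
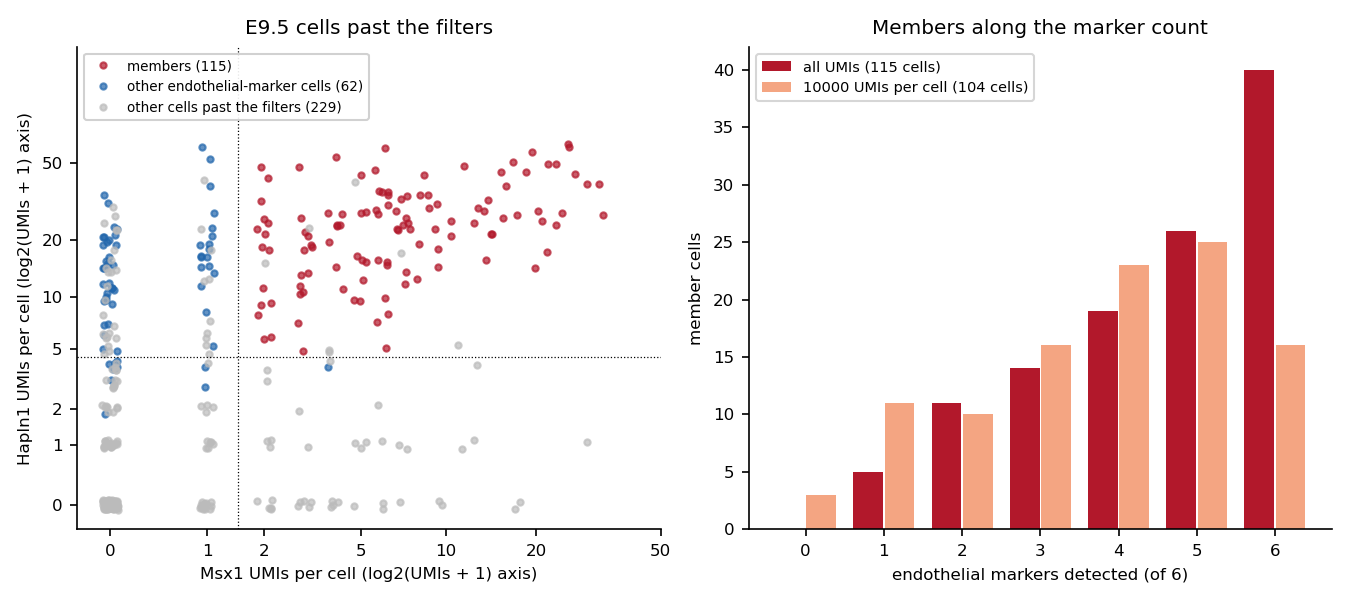
Left: Msx1 and Hapln1 UMIs of each of the 406 E9.5 cells past the filters, on log2(UMIs + 1) axes with a small random offset, and dotted lines at the thresholds of 2 and 5 UMIs; members (red) form the upper right of a cloud that runs on below both lines. Right: number of members by how many of 6 endothelial markers they carried, with all UMIs and after each cell was thinned to 10000 UMIs; 40 members carried all 6 and none carried 0 before thinning.

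The promoters of the rule gene Msx1 and of Snai1, the Snail factor that represses junction genes, are shown because each holds 1 copy of CACCTG, the E-box core that Snail and Zeb repressors bind. Both are RefSeq sequences of build GRCm38.p6, 300 bases around the start site, 5′ to 3′ on the gene's strand, with the motif in capitals. The Msx1 promoter lies at chr5:37824536-37824835 on the minus strand with the motif beginning 210 bases before the start site, and that of Snai1 at chr2:167537945-167538244 on the plus strand with the motif beginning 126 bases before it.
Msx1: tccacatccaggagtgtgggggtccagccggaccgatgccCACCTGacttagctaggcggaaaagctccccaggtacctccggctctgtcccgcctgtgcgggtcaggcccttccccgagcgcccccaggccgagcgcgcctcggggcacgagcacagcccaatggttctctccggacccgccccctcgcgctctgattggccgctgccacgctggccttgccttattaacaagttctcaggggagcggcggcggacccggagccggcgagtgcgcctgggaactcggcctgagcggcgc
Snai1: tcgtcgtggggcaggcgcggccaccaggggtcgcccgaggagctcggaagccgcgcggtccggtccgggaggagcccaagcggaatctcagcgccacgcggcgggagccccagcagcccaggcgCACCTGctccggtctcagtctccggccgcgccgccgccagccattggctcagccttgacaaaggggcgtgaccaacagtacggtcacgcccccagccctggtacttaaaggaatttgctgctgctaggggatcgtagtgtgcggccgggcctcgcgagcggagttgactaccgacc
Searched on both strands, CACCTG occurs in 20.2% of the 32851 promoters of the table, CCGGAA (the ETS core) in 14.9% and GTGGGAA (the RBPJ site) in 6.38%. Matches of CACCTG and GTGGGAA can share letters. Among the 12 genes named below as higher at the low-marker end, 10 had a promoter in the table, and CACCTG was in 2 of them (Krt8 and Krt18). Among the 12 named as lower, 7 had a promoter, and CACCTG was in those of Lyl1 and Sost. Of the 6 gradient genes, 2 had a promoter, and CACCTG was in that of Egfl7. Counted by gene, the share over all 27025 genes was 22.6%. CCGGAA was in 2 genes named as higher, 1 named as lower and 0 gradient genes, against 16.7% of all genes. GTGGGAA was in 2, 1 and 0, against 7.25%. The promoters of Pdlim3, Twist1 and the rule gene Hapln1 were searched for CACCTG too. Pdlim3 held 1 copy and the other promoters 0. A match describes letters in this window and shows no binding.

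The members were ordered by how many of 6 endothelial genes they carried at least 1 UMI of: Cdh5 (VE-cadherin), Pecam1, Emcn (endomucin), Egfl7, Ecscr and Esam. This gradient ran from 5 cells with 1 marker through 11, 14, 19 and 26 cells to 40 cells with all 6. The low-marker end (0 to 2 markers) held 16 cells with 309934 UMIs, the middle (3 to 4) 33 cells with 615116 and the high-marker end (5 to 6) 66 cells with 1755661. Median depth per cell was 21405 UMIs at the low end, 19732 in the middle and 24901 at the high end. After thinning each cell to 10000 UMIs, which left 104 members, 3, 11, 10, 16, 23, 25 and 16 cells carried 0 to 6 markers in that order, so the number detected also moved with depth.

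Of 5074 genes with at least 50 UMIs in both ends together, 158 (3.11%) stood at least 2-fold higher at the low end than at the high end and 339 (6.68%) at least 2-fold lower, with a median ratio of 0.973. With each cell thinned to 10000 UMIs before the markers were counted, 58 were higher and 62 lower of the 2194 that could still be compared. The lists below and their members were chosen with earlier results of these data known.

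Cthrc1, a secreted collagen triple helix repeat protein, had the largest ratio among the named genes that do not rest on the 2 keratin-rich cells described below. It stood at 4.71 UMIs per 10000 (interval 3.98 to 5.54) at the low end, 2.13 in the middle and 0.228 (0.163 to 0.310) at the high end, a ratio of 20.7 (14.5 to 30.1). By number of markers its level was 2.38 with 1, 5.52 with 2, 2.41 with 3, 1.90 with 4, 0.334 with 5 and 0.169 with 6. It was thus highest with 2 markers and low with 5 or 6. Of the 5 cells with 1 marker, 1 is keratin-rich and holds 27312 of their 79977 UMIs. Per cell it ranged from 0 through a median of 1.68 to 12.9 at the low end, against 0, 0 and 8.11 at the high end, so the cells overlapped. Cthrc1 was at 0.0291 in globin cells and 0.0662 in cardiomyocyte cells.

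In sums over all members, Twist1, Sox9 and Snai1 stood higher at the low end than at the high end. The other transition factors compared lay within 2-fold. Of 15 listed transition and cushion transcription factors, 11 were measured well enough to compare, 3 stood at least 2-fold higher (Twist1, Sox9, Snai1) and none 2-fold lower, with a median ratio of 1.51. Without the 2 keratin-rich cells described below, 4 of the 11 stood at least 2-fold higher, with a median ratio of 1.66. Twist1, a basic helix-loop-helix factor of mesenchyme, stood at 2.65 UMIs per 10000 at the low end, 2.21 in the middle and 0.575 at the high end (ratio 4.60, 3.39 to 6.22). Sox9, a factor of cushion mesenchyme and cartilage, stood at 3.39, 3.64 and 0.911 (ratio 3.72, 2.88 to 4.78). Both were still high in the middle, and the widest step between neighbouring marker numbers lay between 4 and 5: Sox9 stood at 4.42 with 4 markers and 1.46 with 5, and Twist1 at 2.28 and 0.876. Snai1 had 0.839 UMIs per 10000 at the low end, 1.11 in the middle and 0.416 at the high end (ratio 2.02, 1.24 to 3.20). In these sums Sox9 and Snai1 were highest in the middle, Sox9 by a narrow margin. The low-end sums include the 2 keratin-rich cells described below, which bears on that order. Tbx20, a T-box factor of the canal, fell just under the threshold with 2.58, 3.06 and 1.29 (ratio 2.0, 1.53 to 2.59). Gata4 (ratio 1.34), Gata6 (1.51), Hand2 (1.14) and Zeb2 (1.36) lay within 2-fold, and Zeb1 stood at 0.666.

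**Figure D2:**
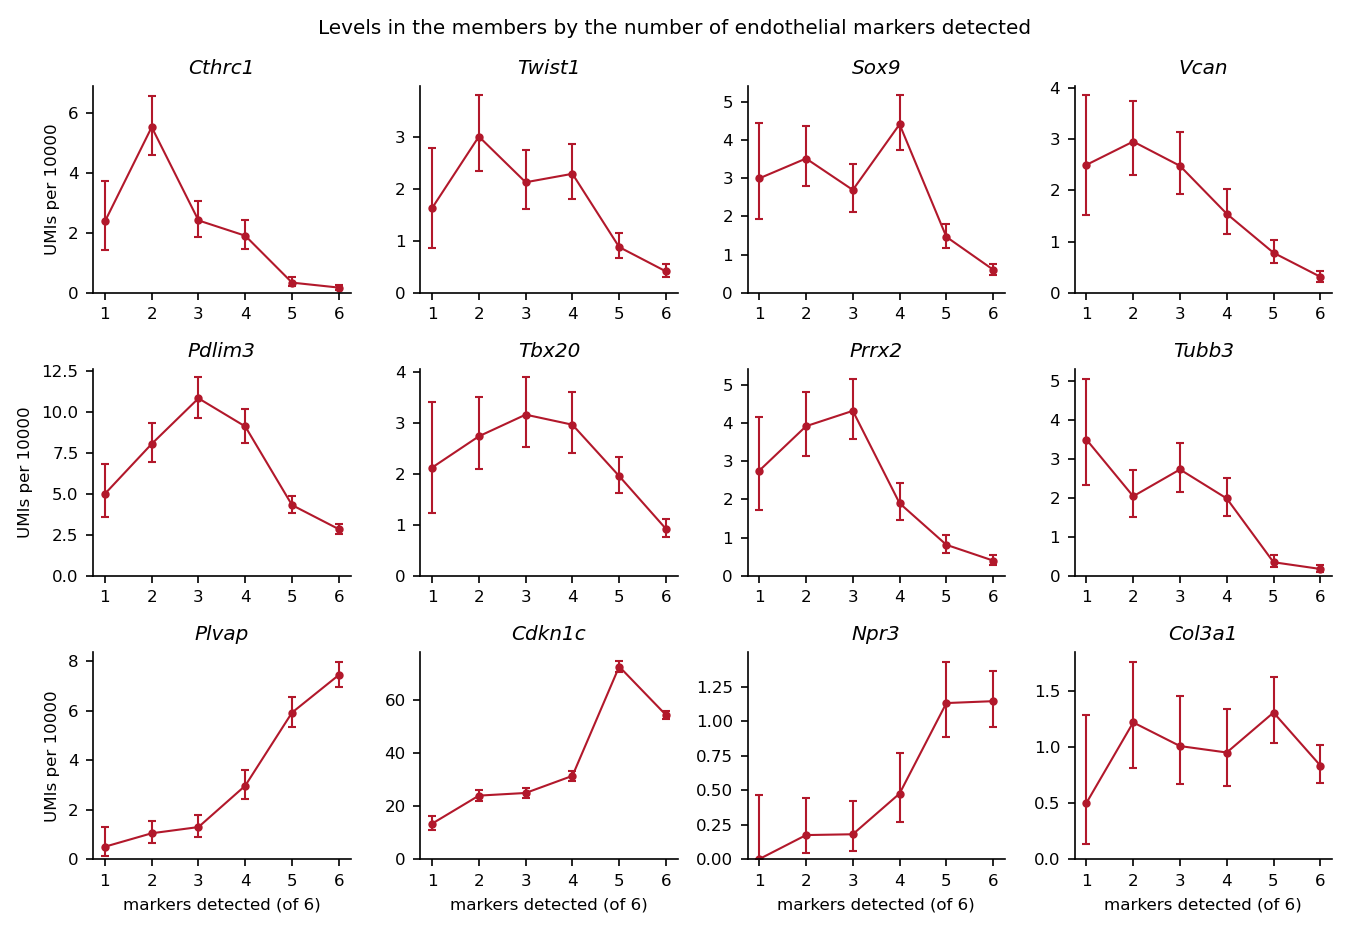
Level (UMIs per 10000, summed over cells, with exact Poisson 95% intervals) of 12 genes in members with 1 to 6 endothelial markers (5, 11, 14, 19, 26 and 40 cells). Twist1 and Sox9 stay above their level at 5 markers in all groups with 1 to 4. Pdlim3 peaks at 3 markers (10.8) and stands at 5.0 with 1 and 4.31 with 5. Of the 79977 UMIs with 1 marker, 27312 come from a keratin-rich cell without Pdlim3, Twist1 or Vcan UMIs. Plvap rises throughout, Cdkn1c rises to 72.7 with 5 markers and stands at 54.4 with 6, and Col3a1 shows no such order.

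The shares of cells with these factors at equal depth ran differently from gene to gene. With each cell thinned to 10000 UMIs, Twist1 was detected in 11 of 13 low-end cells (84.6%, exact Clopper-Pearson interval 54.6 to 98.1), in 80.8% of 26 middle cells and in 30.8% (19.9 to 43.4) of 65 high-end cells. Without thinning the shares were 87.5%, 75.8% and 50%. For Sox9 the thinned shares were 76.9%, 84.6% and 40.0%. For Snai1 they were 76.9%, 38.5% and 26.2% thinned and 62.5%, 51.5% and 51.5% unthinned, and for Twist2 23.1%, 50% and 21.5% thinned. In globin cells, which should lack Twist1 and Sox9 and had a median of 32559 UMIs, the thinned shares of these were 1.68% and 2.1%.

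Jelly and matrix genes did not move as 1 block. Of 9 genes of cardiac jelly and hyaluronan, 5 were compared, of which 3 stood 2-fold higher at the low end and 1 lower. Vcan, the versican core protein, stood at 2.84 UMIs per 10000 at the low end, 1.97 in the middle and 0.478 at the high end (ratio 5.93, 4.35 to 8.10). Ugdh, which makes the sugar precursor of hyaluronan, stood at 2.71, 2.02 and 1.2 (ratio 2.26), and Has2, the hyaluronan synthase of the cushion, at 0.645, 0.553 and 0.268 (ratio 2.41, 1.35 to 4.15). The Has2 direction was not kept when each cell was thinned to 10000 UMIs before the markers were counted (log2 ratio -0.33). Tmem2, a hyaluronan-degrading cell surface enzyme, stood at 0.678, 1.11 and 2.0 (ratio 0.338, 0.207 to 0.525). Among 8 compared genes of collagen and mesenchymal matrix, Fbln2 (fibulin 2; ratio 6.2, 3.73 to 10.3) and Loxl2 (a collagen crosslinking enzyme; 2.83, 1.82 to 4.34) were higher, Col1a2 was lower (0.484, 0.189 to 1.04, an interval that includes 1) and 5 lay between. Col3a1, a fibrillar collagen of the later leaflet, stood at 1.03, 0.975 and 1.00. Basement membrane genes leaned the other way, with 3 of 8 at least 2-fold lower (Col4a1, Col4a2 and Nid1) and a median ratio of 0.687.

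Of the mesenchymal cytoskeleton and adhesion list, 6 of 12 genes were compared and 2 were higher. Pdlim3 stood at 7.26 UMIs per 10000 at the low end, 9.88 in the middle and 3.37 at the high end (ratio 2.15, 1.84 to 2.51), with its highest level at 3 markers (10.8). Tagln, a smooth muscle actin-binding protein, had a ratio of 3.97 (2.16 to 7.16), but stood at 10.2 UMIs per 10000 in cardiomyocyte cells against 0.678 at the low end. Tagln2 was level along the gradient, with 15.0, 15.3 and 13.8, and so was vimentin (Vim; 19.5, 26.5 and 24.3).

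The 12 named genes higher at the low end were Krt18, Slc2a3, Cthrc1, Dlk1, Krt8, Ociad2, Phlda2, Tubb3, 2200002D01Rik, Gpc3, Akr1b8 and Prrx2. A pair of low-end members held most low-end UMIs of 5 of these. One had 25 Krt18, 16 Krt8, 50 Slc2a3 and 73 Dlk1 UMIs, the other 57, 28, 38 and 10, with 60 Phlda2 and 7 Epcam UMIs, and neither had a UMI of Pdlim3, Twist1 or Vcan. They carried 2 and 3 Msx1 UMIs and 6 and 5 Hapln1 UMIs, at the bottom of the rule. Among the other 113 members the highest counts were 2 for Krt18, 4 for Krt8 and 2 for Slc2a3. Without these 2 cells, chosen for their keratin counts after the data were seen, the ratio of Krt8 was 4.25, of Krt18 1.51, of Slc2a3 0.817, of Dlk1 0.613 and of Phlda2 0.409, and the epithelial markers at the low end came to 0.596 UMIs per 10000 in place of 4.87. The counts without them were 145 genes higher and 353 lower of 5009, of which 116 and 277 were shared with the lists above. Some counts by list moved too. Without these cells 2 basement membrane, 1 TGF-beta and 3 flow-responsive genes were at least 2-fold lower, in place of 3, 2 and 4. Of the cytoskeleton and adhesion list, 1 of 5 compared genes was higher.

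Of the remaining 7 named genes, 6 had higher ratios without the keratin-rich cells. The exception was Gpc3, a glypican of the cell surface, whose ratio of 10.1 was 6.54 without them, and which stood at 2.29 UMIs per 10000 in cardiomyocyte cells against 1.39 at the low end. Tubb3, a tubulin best known from neurons, stood at 2.42 UMIs per 10000 at the low end, 2.32 in the middle and 0.239 at the high end (ratio 10.1, 6.84 to 15.1), and at 11.7 without those cells. Akr1b8, an aldo-keto reductase, had a ratio of 7.98 (5.45 to 11.7). Prrx2, a relative of Prrx1, stood at 3.61, 2.99 and 0.547 (ratio 6.61, 4.99 to 8.77). Prrx2 and Vcan were also present in cardiomyocyte cells, at 2.59 and 1.32 UMIs per 10000, and at 0.170 and 0.0461 in globin cells. Summed cardiomyocyte markers stood at 22.2, 20.5 and 17.9 UMIs per 10000 from the low to the high end, all near the 22.2 of globin cells. Their part in the ratios was not tested. The list for pharyngeal and neural crest mesenchyme, which holds Prrx2, came to 4.45, 3.09 and 0.661 UMIs per 10000, with Prrx1, Dlx5, Tfap2b and Osr1 at 0 at the low end, and the proepicardial list to 0.581, 0.471 and 0.125, with Tbx18 and Aldh1a2 at 0 there. The part of those cell types was not tested either. The genes that enter the named list once the keratin-rich cells are left out are Tspan8, Vcan, Klf1, Fbln2, Ncam1 and Twist1. Klf1, an erythroid factor, stood at 0.903 UMIs per 10000 at the low end, 0.699 in the middle and 0.125 at the high end, against 3.70 in globin cells, and the whole erythroid list came to 1.48, 1.15 and 0.587. The part of erythroid RNA in that ratio was not tested.

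Endothelial genes other than the 6 that order the cells were lower at the low end in most cases. Of 15 listed genes of endothelial identity, 14 were compared, 11 stood at least 2-fold lower and none 2-fold higher, with a median ratio of 0.310. Since the cells were ordered on 6 genes of the same kind, this count describes the gradient and supports nothing about it. Plvap, a protein of endothelial diaphragms, stood at 0.903 UMIs per 10000 at the low end, 2.21 in the middle and 6.90 at the high end (ratio 0.131, 0.0867 to 0.190). It ran up with every added marker, through 0.5, 1.04, 1.29, 2.97, 5.92 and 7.44. Eng, the TGF-beta co-receptor endoglin, was the best kept, with 3.77, 6.39 and 5.40 (ratio 0.699), and Tek, the receptor whose promoter drives the Cre, stood at 0.774, 0.975 and 1.39 (ratio 0.557).

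Of the 12 named genes lower at the low end, 4 had no UMI there. Lmo2, a partner of endothelial and blood transcription factors, had 0.900 UMIs per 10000 at the high end and was at least 9.30-fold lower at the low end, where 3 UMIs over the group set the floor. This direction turned with 1 or more Msx1 UMIs in place of 2 (log2 ratio 0.27). For Dusp2, a phosphatase of active MAP kinases, the bound was 8.71-fold, for Sost, a secreted Wnt and BMP pathway antagonist, 8.59-fold, and for Gimap1, a GTPase of the immunity-associated family, 7.94-fold. Sost also had 0 UMIs in the middle. Klhl4, Gpr182 and Ctla2a had 1 UMI each at the low end, with ratios of 0.0320 (0.000806 to 0.181), 0.0324 (0.000815 to 0.183) and 0.0359 (0.000902 to 0.203). Prkch, Lyl1 and Tgm2 had 2 UMIs each, and their ratios were 0.0682 (0.00820 to 0.250), 0.0760 (0.00912 to 0.280) and 0.0803 (0.00964 to 0.296). Lmo2 and Lyl1 were also present in globin cells, at 0.830 and 0.911 UMIs per 10000. Ipo11 had 6 UMIs and a ratio of 0.118 (0.0430 to 0.260). Within the endothelial list, Cldn5 and Sox17 were likewise at 0 at the low end, at least 4.41-fold and 3.82-fold lower.

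Genes of the endocardium split. Npr3, a natriuretic peptide receptor of the endocardium, stood at 0.129 UMIs per 10000 at the low end, 0.341 in the middle and 1.14 at the high end (ratio 0.113, 0.0306 to 0.295). Tmem100 (ratio 0.135, 0.0161 to 0.503) and Nrg1 (0.461, 0.180 to 0.991) were lower as well. Nfatc1, a factor of cushion endocardium, stood at 0.516, 0.748 and 0.832 (ratio 0.621) and Cgnl1 at 1.10, 1.63 and 1.26 (ratio 0.868). Adgrg6, the remaining gene of the 6 listed, also lay within 2-fold. Without the keratin-rich cells, 1 of the 6 endocardial genes stood at least 2-fold higher at the low end and 2 lower. Junction genes split too, with the tight junction genes Tjp1 (ratio 0.201, 0.0537 to 0.528) and F11r (0.183, 0.0216 to 0.688) lower, and the catenins Ctnna1 (1.16) and Ctnnb1 (0.966) level. That made 2 of 7 compared genes lower.

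**Figure D3:**
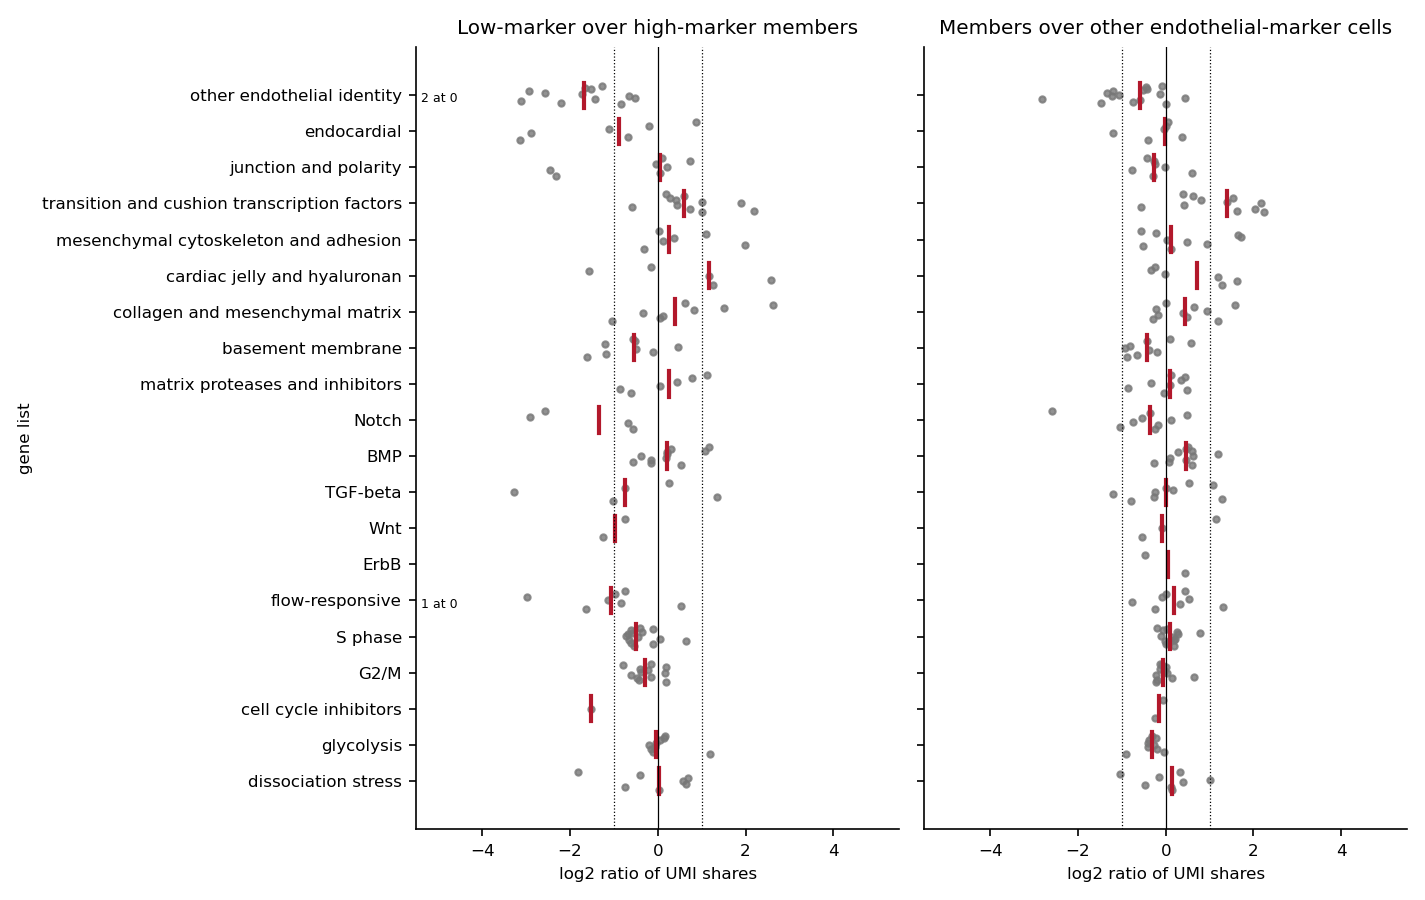
Each grey point is the log2 ratio of UMI shares of 1 compared gene of a list, and the red bar is the median ratio of the list (genes at 0 on 1 side counted in it and printed as "at 0"). Left: low-marker over high-marker members; right: members over other endothelial-marker cells. Dotted lines mark 2-fold. The endothelial identity list has its median at 0.310 on the left, and the transition factors have theirs at 2.62 on the right.

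Signalling genes were sparse at this depth, and few could be compared. Among BMP genes 11 of 20 were compared, and Id2, a BMP-induced inhibitor of helix-loop-helix factors, and Bambi, a decoy receptor, stood higher at the low end. Id2 had 10.3 UMIs per 10000 at the low end, 9.62 in the middle and 4.91 at the high end (ratio 2.1, 1.84 to 2.39), and Bambi had 3.03, 3.46 and 1.36 (ratio 2.24, 1.74 to 2.85). Both were also abundant in cardiomyocyte cells, at 9.57 and 3.57 UMIs per 10000, and at 0.387 and 0.194 in globin cells. Id1 (ratio 1.15) and Id3 (1.23) lay within 2-fold. Of the TGF-beta genes 5 of 13 were compared: the ligand Tgfb2 stood higher at the low end (ratio 2.57, 1.60 to 4.04), the ligand Tgfb1 lower (0.495, 0.309 to 0.759), and the co-receptor Tgfbr3 lower with 1 UMI there (0.103, 0.00256 to 0.598). Tgfb2 stood at 1.19 UMIs per 10000 in cardiomyocyte cells, above its 0.936 at the low end. Of 4 compared Notch genes, Hey1, a Notch target, was lower (0.133, 0.0159 to 0.496), as was Nrarp, a Notch target that dampens the pathway (0.169, 0.0201 to 0.635). Notch1 (0.677) and Hes1 (0.622) lay within 2-fold. Of 8 flow-responsive genes, 4 were lower: Klf2, Nos3, Edn1 and Cav1. Klf2 did not keep its direction in thinned cells (log2 ratio 0.14). No ErbB gene reached 50 UMIs, and of 2 compared Wnt genes Wnt4 was lower (ratio 0.420, 0.110 to 1.14, an interval that includes 1).

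Cdkn1c, the cyclin-dependent kinase inhibitor p57, was the most abundant gene discussed here. It stood at 21.2 UMIs per 10000 at the low end, 28.5 in the middle and 60.9 at the high end (ratio 0.348, 0.322 to 0.377), and was detected in every member. By number of markers Cdkn1c was highest with 5, at 72.7 (70.6 to 74.8), and stood at 54.4 (53.0 to 55.8) with 6. Per cell Cdkn1c ran through 2.12, 15.6 and 109 (lowest, median and highest) at the low end and through 0.681, 66.0 and 162 at the high end, so the cells overlapped although the medians lay far apart. None of the 14 S phase and 12 G2/M genes passed 2-fold in either direction, with medians of 0.713 and 0.816. Their summed levels were lower at the low end: the S phase genes came to 16.1 UMIs per 10000 (14.7 to 17.6) there and 21.0 (20.4 to 21.7) at the high end, and the G2/M genes to 18.1 (16.7 to 19.7) and 22.5 (21.8 to 23.2). The G2/M genes were highest in the middle, at 27.5 (26.2 to 28.8). With the 5 cells of 0 to 1 markers against the 40 of 6, 10 of 12 G2/M genes were at least 2-fold lower, with a median of 0.353. Of those 5 cells, 1 is keratin-rich and holds 27312 of their 79977 UMIs. With 0 to 3 against 4 to 6 markers no G2/M gene was 2-fold lower, and the median was 1.12. Over the 17 alternatives to the main setting, at most 3 of 14 S phase genes were at least 2-fold lower. At least 2 G2/M genes were found in 12 of 13 thinned low-end cells (92.3%, 64.0 to 99.8), 23 of 26 middle cells and 60 of 65 high-end cells (92.3%, 83.0 to 97.5). Without thinning the shares were 100%, 97.0% and 100%, and the thinned share was 98.7% in globin cells. With nearly all cells past this limit in every group, the share cannot show a difference. Glycolysis genes were level (median ratio 0.975), apart from Slc2a1, whose ratio of 2.28 was 0.586 without the keratin-rich cells. Of 7 compared dissociation stress genes 1, Dusp1, passed 2-fold (0.285, 0.113 to 0.604), and its direction was not kept in thinned cells (log2 ratio 0.38).

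Endothelial and mesenchymal genes met in the same droplets. A UMI of Cdh5 and one of Twist1 were found together in 55 of 115 members (47.8%, 38.4 to 57.3) and in 28 of 104 thinned members (26.9%, 18.7 to 36.5). In thinned cells the share was 15 of 52 (28.8%, 17.1 to 43.1) in the other endothelial-marker cells described next, and 0 of 238 in globin cells, where 3 cells of the total would be 1.26% and the exact upper bound is 1.54%. Cdh5 met Sox9 in 31 of 104 thinned members (29.8%, 21.2 to 39.6), against 8 of 52 of those other cells (15.4%, 6.88 to 28.1) and 0 of 238 globin cells. Without thinning Cdh5 met Sox9 in 60 of 115 members (52.2%) and 14 of 62 other cells (22.6%). The intervals of both pairs overlap between members and other cells at equal depth. Plvap met Sox9 in 46 of 104 thinned members (44.2%, 34.5 to 54.3) and in 8 of 52 other cells (15.4%), whose intervals do not overlap, and in none of 238 globin cells. Sox9 itself was found in 55.8% of thinned members and 15.4% of the other cells.

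The members were then set against 62 cells of the same library that passed the same filters, carried at least 4 of the 6 endothelial markers and no Prrx1 UMI, and were not members. These held 1364307 UMIs, a median of 20084 per cell. Most of them also carried at least 5 Hapln1 UMIs and missed the rule on Msx1 alone. Of 7113 compared genes, 121 (1.7%) stood at least 2-fold higher in members and 123 (1.73%) at least 2-fold lower, and the median ratio was 1.01. The rule sets the difference in Msx1 (3.76 UMIs per 10000 in members and 0.176 in the others) and bears on that in Hapln1 (11 and 6.82).

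Among transition factors 6 of 11 compared genes were at least 2-fold higher in members and none lower, with a median ratio of 2.62. Sox9 stood at 1.82 UMIs per 10000 in members and 0.403 in the others (ratio 4.52, 3.42 to 6.09). Per cell Sox9 was 0 at the lowest, 1.19 at the median and 12.4 at the highest in members, against 0, 0 and 8.78 in the others, so the cells overlapped. Snai1 stood at 0.623 and 0.132 (ratio 4.72, 2.90 to 8.16), Twist2 at 0.511 and 0.125 (4.10, 2.47 to 7.24) and Twist1 at 1.19 and 0.388 (3.06, 2.28 to 4.18). Gata5, an endocardial GATA factor, stood at 1.26 and 0.432 (ratio 2.92), and Tbx20 at 1.85 and 0.704 (ratio 2.62, 2.11 to 3.30). Pdlim3 stood at 5.32 and 1.62 (ratio 3.28, 2.85 to 3.80), while Tagln2 lay within 2-fold at 14.3 and 10.2 (ratio 1.40). Of the jelly genes Vcan (3.11, 2.28 to 4.31), Has2 (2.45) and Ugdh (2.29) were higher in members, and of the matrix genes Fbln2 (2.97) and Col1a2 (2.27). Col1a2 was not higher in members when cells with 3 markers were added to the others (log2 ratio -0.13).

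**Figure D4:**
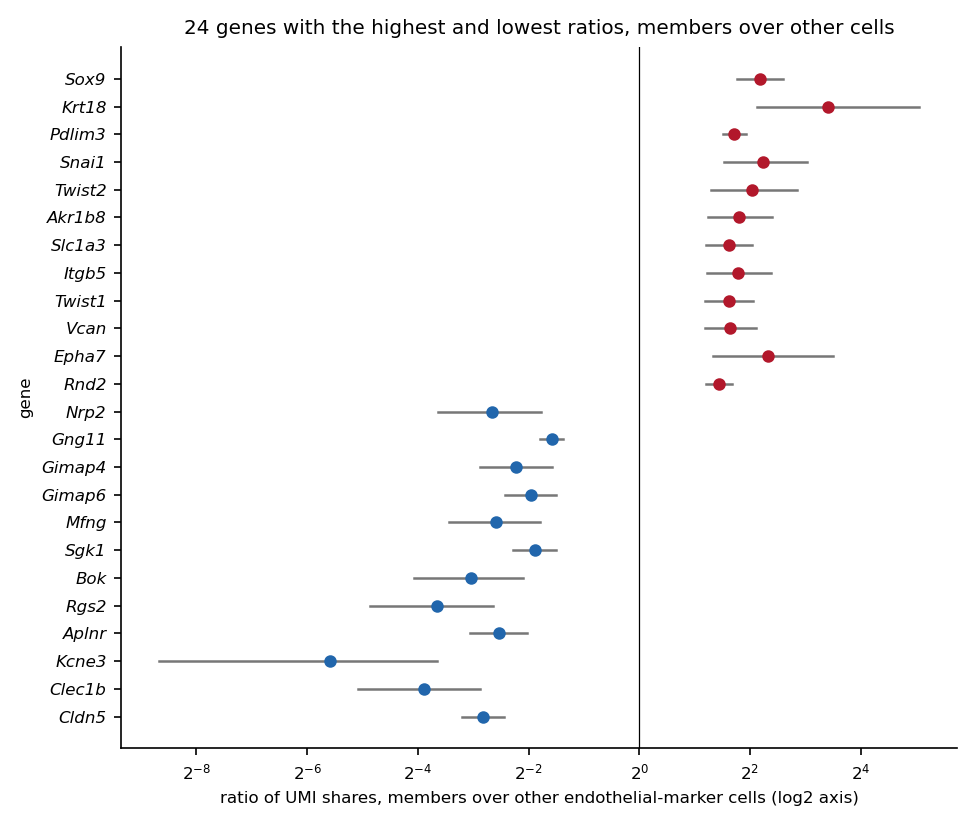
Ratio of UMI shares (log2 axis, with exact conditional 95% intervals for counting error) for the 12 genes with the highest and the 12 with the lowest values, 115 members over 62 other endothelial-marker cells of E9.5. Sox9 lies at 4.52 and Cldn5 at 0.142; the Krt18 value rests on 2 keratin-rich members.

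The other named genes higher in members were Krt18, whose ratio of 10.6 was 2.27 without the keratin-rich cells, Akr1b8, Slc1a3 (a glutamate transporter; ratio 3.07), Itgb5 (an integrin subunit; 3.43), Epha7 (an ephrin receptor; 5.03, 2.54 to 11.4) and Rnd2 (2.71, 2.30 to 3.20). Smad7, an inhibitor of TGF-beta and BMP signalling, was the BMP list gene past the fold, with 0.750 UMIs per 10000 in members and 0.330 in the others (ratio 2.27), and Tgfb2 stood at 0.571 and 0.235 (ratio 2.43). Tgfbr2, the type 2 TGF-beta receptor, was lower, at 0.0895 and 0.205 (ratio 0.436, 0.242 to 0.780).

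Lower in members were Cldn5, the tight junction claudin of vascular endothelium, with 0.284 UMIs per 10000 in members and 2.0 in the others (ratio 0.142, 0.108 to 0.183), and Aplnr, the apelin receptor, with 0.168 and 0.968 (ratio 0.173). Clec1b, Kcne3, Rgs2, Bok, Sgk1, Mfng, Gimap6, Gimap4, Gng11 and Nrp2 completed the 12. Kcne3 had 2 UMIs in all members (ratio 0.0208, 0.00245 to 0.0791). Mfng, a Notch-modifying glycosyltransferase, stood at 0.0671 and 0.403, and Nrp2, a VEGF and semaphorin co-receptor, at 0.0522 and 0.330. Of 15 endothelial identity genes compared, 6 were lower (Kdr, Cldn5, Erg, Fli1, Sox17 and Sox18), with a median ratio of 0.666, and none higher. The others had to carry at least 4 of the 6 endothelial markers and members did not. That choice bears on this count, which supports nothing about members. The endocardial genes did not separate the groups, with 1 of 6 past 2-fold (Tmem100, 0.438) and a median of 0.993. Members were then limited to the 85 that carry at least 4 markers, so that both sides carry them. Of 6610 compared genes, 72 were higher in those members and 88 lower. Sox9 stood at 1.48 UMIs per 10000 in them, Snai1 at 0.478 and Pdlim3 at 4.30. Log2 ratios, with 0.1 UMIs per 10000 added, were 1.32 for Snai1 and 1.35 for Pdlim3, against 1.64 and 1.65 with all members. They were 0.96 for Twist1, 0.73 for Vcan, 0.61 for Akr1b8 and 0.55 for Fbln2, against 1.40, 1.40, 1.43 and 1.08.

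The mitral valve libraries were set beside the members with no test, since stage, library and, for E9.5, the dissected region coincide. In them, matrix-gene cells carried at least 4 of Col1a1, Col1a2, Col3a1, Postn, Dcn and Lum and at most 1 of the 6 endothelial markers, and endothelial-marker cells at least 3 of the 6 and at most 2 matrix genes. There were 134 and 82 such cells at E16.5, 111 and 121 in P0 replicate 1, and 69 and 65 in P0 replicate 2. Their median depths lay between 2147 and 5769 UMIs per cell.

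The levels of Hapln1 and Msx1 in members were set by the rule, and later cells had no such gate, so these are given as a description. Hapln1 stood at 11 UMIs per 10000 in members, 0.705 in E16.5 matrix-gene cells, and 0.406 and 0.998 in those of the P0 replicates. Msx1 stood at 3.76, 0.368, 0.677 and 0.968. Cdkn1c, which the rule did not use, stood at 48.9 in members, 0.306 in E16.5 and 2.23 and 2.03 in P0 matrix-gene cells. Its level in endothelial-marker cells was 0.949, 2.77 and 4.07 in the same 3 libraries, so it was low in both kinds of later cell.

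Genes that leaned to the low end differed in later matrix-gene cells. Tbx20, Vcan and Cthrc1 stood above the level of all members in every later library, Sox9 on both sides of it, and others below it. Sox9 stood at 1.82 in members, 1.65 in E16.5 matrix-gene cells, and 2.40 and 1.36 at P0, with 0.206, 0.0117 and 0.0256 in endothelial-marker cells of those libraries. Tbx20 stood at 1.85, 2.82, 4.30 and 3.84, against 0.248, 0.211 and 0.281. Vcan stood at 1.09, 2.45, 4.30 and 4.66, against 0.248, 0.716 and 0.690. Cthrc1 stood at 1.18, 2.97, 2.79 and 1.88, against 0.248, 0.211 and 0.384. In each of these 4 genes the matrix-gene cells of every later library lay above its endothelial-marker cells. At the low end alone these stood at 3.39 (Sox9), 2.58 (Tbx20), 2.84 (Vcan) and 4.71 (Cthrc1). The later levels of Sox9 and Cthrc1 all lay below their low-end levels. Snai1 stood at 0.623 in members and 0.839 at the low end, against 0.521 in E16.5 and 0.271 and 0.0605 in P0 matrix-gene cells. Twist1 stood at 1.19 in members and 2.65 at the low end, against 1.13 in E16.5 and 0.389 and 0.756 in P0 matrix-gene cells. Prrx2 stood at 1.46 in members and 3.61 at the low end, against 0.306 in E16.5 and 0.220 and 0.333 in P0 matrix-gene cells, and Tubb3 at 0.970, 0.368, 0.102 and 0.212. The fibrillar collagens stood apart: Col1a1 was at 0.0261 in members and at 18.3, 19.5 and 20.7 in later matrix-gene cells, and Col3a1 at 1.00, 25, 32.5 and 27.2.

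**Figure D5:**
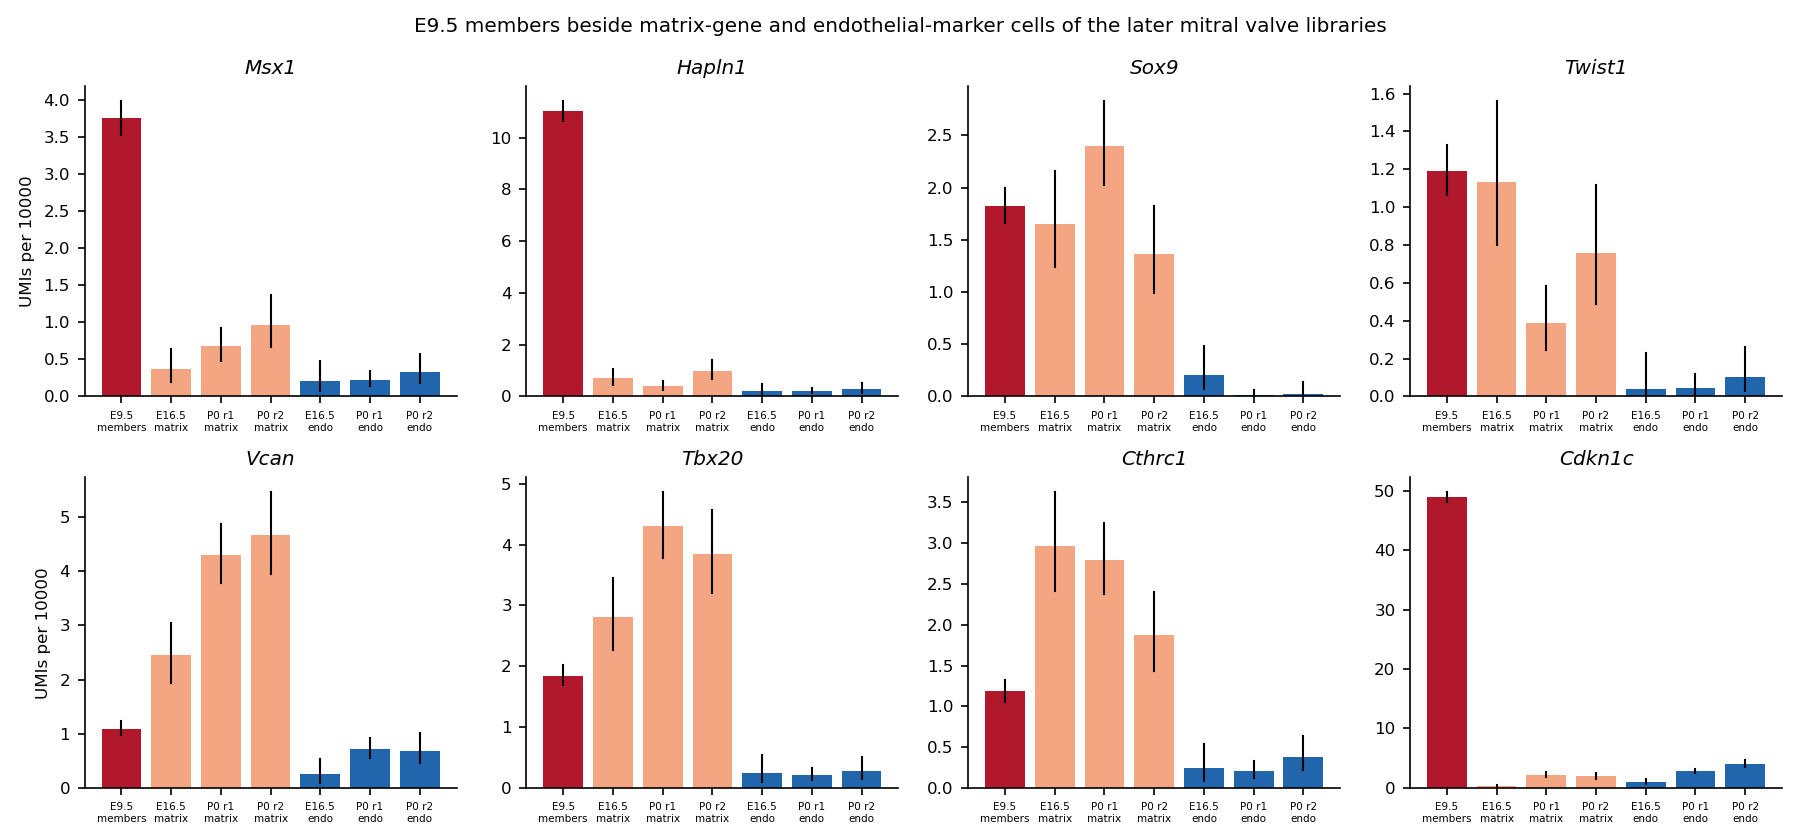
Level (UMIs per 10000, with exact Poisson 95% intervals) of 8 genes in the 115 E9.5 members and in matrix-gene (matrix) and endothelial-marker (endo) cells of the E16.5 library and of P0 replicates 1 and 2 (r1, r2). Cdkn1c stands at 48.9 in members and at most 4.07 in the later groups, Sox9, Twist1, Vcan, Tbx20 and Cthrc1 lie higher in matrix-gene than in endothelial-marker cells of each later library, and the Msx1 and Hapln1 levels of members were set by the rule.

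The side on which the gradient genes fall in the later libraries uses cells that neither the rule nor the ordering used. This comparison was added after the data were seen and leaves out the gate genes. Of the 158 genes higher at the low end, 95 had at least 20 UMIs in both P0 libraries, and 55 of these (57.9%) were higher in matrix-gene than in endothelial-marker cells in both, with 20 (21.1%) lower in both. Of the 338 genes lower at the low end, 200 were measured, 155 (77.5%) were lower in matrix-gene cells in both libraries and 20 (10.0%) were higher. Over all 3725 measured genes the shares were 30.6% higher and 41.6% lower. In the E16.5 library 53 of 63 genes (84.1%) higher at the low end were higher in matrix-gene cells, against 52.3% of all 2284 measured, and 92 of 115 (80%) genes lower at the low end were lower there, against 47.7%. The gates of the later cells use the same 6 endothelial genes as the gradient, so both comparisons set cells with few of them against cells with many.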

How the data were processed

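Single-cell 3' RNA libraries of sorted cells were measured in 4 samples. The UMI counts per gene and cell were deposited by the authors as raw matrices, made with Cell Ranger 2.1.1 on build mm10, per the submitters' processing notes, and the deposited gene tables hold identifiers (unit other). For the strand counted, the annotation and the calling of cells, no statement was found in the labels or headers. Since the embryonic barcode files list all 737280 possible barcodes, and each P0 barcode file is as long as the other P0 matrix is wide (291 and 211 cells), each matrix column was taken as a cell. The P0 files share 4 barcodes.

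UMIs were summed over cells and given per 10000, with exact Poisson intervals for levels, exact conditional binomial intervals for ratios and Clopper-Pearson intervals for shares, all at 95% and for counting error alone. Genes with at least 50 UMIs in both groups together were compared, and a ratio of at least 2 or at most 0.5 was called past the fold. No test was made, since E9.5 is 1 library. Named genes are the 12 highest and 12 lowest ratios, after adding 0.1 UMIs per 10000, among compared genes found in at least 10% of the cells of one side, with a middle value between the ends in the gradient, leaving out rule, gradient and mitochondrial genes. Genes of the fixed lists are named too. The members, lists and tests were chosen with earlier results of these data known. Doublets were scored with scrublet in scanpy 1.11.5, and sums were made with Python 3.11.15, numpy 2.4.6 and scipy 1.17.1. The ratios and intervals were tested on simulated data.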

Additional observations from a re-analysis of the deposited data

How the results depend on the processing

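The counts of genes past 2-fold moved most with the filter on low counts. In the gradient, 459 genes were higher and 770 lower of 7786 with at least 20 UMIs, and 1976 and 3543 of 13541 with no filter. With each cell thinned to 10000 UMIs, which left 2194 genes to compare, 58 were higher and 62 lower. With 0 to 1 against 6 markers 574 of 3612 were lower. For members over other cells, 315 were higher and 284 lower of 9342 with at least 20 UMIs, and 2399 and 1424 of 14576 with no filter. When the others had no Msx1 UMI, 195 of 6722 were higher. For members with 4 or more markers 72 of 6610 were higher, and after thinning 64 of 4234 were lower. The share of cells with 2 or more G2/M genes was 100% at both ends without thinning.

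Of 1343 log2 ratios of 79 genes under 17 alternatives in the gradient, 1117 stayed within counting error, and 19 values past 2-fold changed sign. Of 588 ratios of 49 genes under 12 alternatives against other cells, the numbers were 425 and 2. In both comparisons, the changed filters on low counts and the removal of doublets left every ratio as it was. Those alternatives could not show a change. Values within 2-fold changed sign as well: 8 of Tagln2 and Col3a1 in the gradient, down to -0.44 for Tagln2 with 1 or more Msx1 UMIs and -0.64 for Col3a1 with 0 to 1 against 6 markers, and 2 of Cdkn1c against other cells (0.24 and 0.13). Past 2-fold, signs changed for Wnt4 with 0 to 1 against 6 markers (0.25), after thinning (0.19) and with 3 or more Hapln1 UMIs (0.60), and after thinning for Klf2 (0.14), Has2 (-0.33) and Dusp1 (0.38). They changed for Lmo2 with 1 or more Msx1 UMIs (0.27) and for Col1a2 with 3 or more Hapln1 UMIs (0.17). With 10 or more Hapln1 UMIs, which leaves out the keratin-rich cells, values were -0.31 for Krt18, -0.41 for Slc2a3, -0.35 for Dlk1, -1.53 for Phlda2, -2.88 for Car4 and -0.76 for Slc2a1. Without those cells alone they were -0.13 for Slc2a3, -0.41 for Dlk1, -0.69 for Phlda2, -2.84 for Car4 and -0.66 for Slc2a1. Against others with 3 or more markers, Krt18 stood at -1.54 and Col1a2 at -0.13. Apart from the changes tied to the keratin-rich cells and to the number of genes compared, the cause was not tested. TMM scaling shifted the median log2 ratio by -0.08 in the gradient. All 195 P0 values stayed within the standard deviation of the 2 P0 libraries. Where 1 P0 library was left out this was fixed in advance, since the mean of 2 values cannot move past their standard deviation. No paired analysis was possible because no test was made and E9.5 has 1 library. Depth limits genes with few UMIs at the low end, where 16 cells hold 309934 UMIs.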
